A study of Mus musculus with 9 samples.

Results

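Pachytene spermatocytes were compared with spermatogonia in 3 RNA-seq libraries of each stage, 6 of the 9 libraries of a series on transcripts in germ cells of the testis of adult mice. The pachytene libraries hold spermatocytes labelled by that stage alone. Those of spermatogonia hold types A and B together. The other 3 libraries, from round spermatids, entered the estimate of spread and are quoted where a result turns on their level. All males were kept on a normal diet. Strain, genotype, exact age and the way the cells were isolated are not stated in the sources used here. The design calls the libraries biological replicates without saying that each came from a separate animal, so a p-value measures the spread between these samples, which may be technical.

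Spermatogonia are the mitotic germ cells of the testis, from stem cells to cells about to enter meiosis. Pachytene spermatocytes are in the longest stage of meiotic prophase, when homologous chromosomes are fully paired, crossovers mature, and the X and Y chromosomes, which lack a partner along most of their length, are packed into a transcriptionally silent body known as the sex body. Pachytene is also known as a stage of broad autosomal transcription, when many genes used only by meiotic cells or by sperm are switched on, often by the factors A-MYB and RFX2.

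Values are FPKM, fragments per kilobase of transcript per M mapped fragments (M, mega), as the authors deposited them for each library. They stand in a pair of tables, named here for the mRNA and the lncRNA, with 39336 features of all gene types and 5385 features. The scales differ: for the 4491 features found in both, a library's median ratio of the lncRNA table over the mRNA table was 29.1 to 47.7, so no value is compared across them. A feature was called higher or lower when limma, run on log2(FPKM + 0.1) over 17987 mRNA table features and 4009 lncRNA table features, gave an adjusted p under 0.05 and a change of at least 2-fold. Every log2 fold change is pachytene minus spermatogonia on that scale, which understates the change of low features, and none is given where all 3 libraries of a stage list 0. The steps between low values of the mRNA table imply about 26.2, 21.4 and 25.2 M fragments in the pachytene libraries. In the spermatogonia libraries they imply 26.0, 47.1 and 52.8 M. Log2 values of library pairs correlated at 0.981 to 0.983 within pachytene, 0.969 to 0.986 within spermatogonia and 0.530 to 0.565 between the stages, across features of the mRNA table, which are not independent replicates.

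Stage markers went the way of the labels, with other transcripts beside them. The markers were listed by stage with earlier results of these data known, so their direction supports nothing by itself. All 15 markers of spermatogonia were lower in pachytene, and all 14 markers of pachytene were higher. The summed level of the first was 64.7 to 72.1 FPKM in pachytene libraries and 515 to 605 FPKM in spermatogonia libraries, so that a marker of spermatogonia stood in pachytene at 5.1 to 28.4% of its spermatogonia level. Over all features tested, 36.6% were higher in pachytene and 31.0% lower. Of 12 genes of early prophase, the stage between, 5 were higher and 5 lower, near those shares. Their median log2 fold change was 0.74. With a share of the round spermatid level subtracted, as described below, 5 were higher and 6 lower, with a median of -0.82. Gm4969, now named Meiosin, a partner of STRA8 at the entry to meiosis, had 1.1, 0.969 and 0.768 FPKM in pachytene, against 14.4, 13.8 and 11.9 FPKM in spermatogonia. Dmc1, the recombinase of meiotic strand exchange, had 1.72, 1.61 and 1.8 FPKM in pachytene and 12.6, 12.9 and 9.76 FPKM in spermatogonia, and Prdm9, which marks the sites of recombination, had 1.26, 0.843 and 0.737 FPKM in pachytene, against 11.1, 10 and 9.52 FPKM in spermatogonia. These 3 were thus higher in the libraries labelled as spermatogonia. Members that rose include Hormad1, a protein of unsynapsed axes, and Gm1564, while Sycp3, a core of the chromosome axis, had 282, 257 and 264 FPKM in pachytene and 67.6, 68.5 and 58.1 FPKM in spermatogonia.

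Markers of other testis cells were mostly higher in the spermatogonia libraries. Over all features tested, 31.0% were lower in pachytene and 36.6% higher. Of 14 Sertoli cell markers, 13 were lower in pachytene, with a summed level of 392 to 408 FPKM there and 1609 to 1900 FPKM in spermatogonia. All 7 markers of peritubular myoid cells, all 7 of fibroblasts, 6 of 7 of endothelium and 7 of 9 of macrophages were also lower. Their summed levels in pachytene were 29.8 to 32.2, 8.4 to 9.71, 5.67 to 7.51 and 2.06 to 3.33 FPKM. In spermatogonia the same 4 sums were 198 to 270.0, 167 to 378, 33.5 to 76.7 and 6.37 to 38.7 FPKM. None of these markers was at 0 in all 3 pachytene libraries. At a pseudocount of 1 FPKM, 3 of 9 macrophage markers and 5 of 7 myoid markers were called lower. The counts for Sertoli cells, fibroblasts and endothelium did not change. Spermatogonia replicate 3 stands apart in several: it held the highest sum for myoid, fibroblast, endothelial, macrophage and red cell markers, and the muscle genes Des, a filament protein, and Smyd1, a methyltransferase of striated muscle, were at 65.8 and 15.3 FPKM there, against at most 1.76 and 0.363 FPKM in the other spermatogonia libraries. The part of such cells in the lower levels below was not tested, and in bulk RNA fewer cells of a type and less RNA per cell cannot be told apart. Leydig cell markers took no single direction, with 4 of 7 tested higher in pachytene, 1 lower and 2 not called. At a pseudocount of 1 FPKM, 2 of these 7 were called higher and 1 lower. Their median log2 fold change was then 0.68 in place of 1.88. Cyp17a1, an enzyme of androgen synthesis, had 11.8, 11.8 and 12.8 FPKM in pachytene, against 2.47, 2.07 and 2.12 FPKM in spermatogonia, whereas Hsd17b3, which makes testosterone, had 2.03, 1.89 and 1.75 FPKM in pachytene and 23, 27.2 and 23.5 FPKM in spermatogonia.

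Markers of round spermatids stood in the pachytene libraries at a narrow fraction of their spermatid level. Prm1, a protamine that packs sperm DNA, had 393, 463 and 369.8 FPKM in pachytene, against 0, 0.072 and 0 FPKM in spermatogonia, and averaged 4086 ± 83.8 FPKM in round spermatids (SD, n = 3). The 14 spermatid markers, all called higher in pachytene (36.6% of all features were), lay at 7.21 to 10.1% of the spermatid level. Among 4571 coding features with at least 20 FPKM in round spermatids, none was under 6% of that level in pachytene and 471 lay between 6 and 10%, the lowest at 6.34%. Most of the 4571 lay far above this range, with a median of 88.0% and the highest at 1150%. The part of spermatid RNA in the pachytene libraries was not tested. In an alternative chosen after seeing the data, the median marker share of each pachytene library (8.18, 8.91 and 8.08%) times the spermatid level was subtracted. Then 6 of the 14 spermatid markers, but all 14 pachytene markers, were called higher in pachytene. The share was set from the same spermatid markers, so their loss of calls follows largely from that choice.

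The libraries differed in most of what was measured, and the large changes, with the values as deposited, were mainly higher in pachytene. In the mRNA table, 6584 features rose (36.6%) and 5570 fell (31.0%), which left 5833 not called, and the median log2 fold change over all features was 0.26. With the spermatid share subtracted, 5147 rose and 6293 fell. Under quantile normalization, which moved the median log2 fold change to -0.22, 5223 rose and 6435 fell. Changes of at least 16-fold, counted on the fitted scale with features at 0 in a stage included, numbered 1635 rises and 344 falls, and those of at least 256-fold 249 and 4. A count without folds can hold the same features. It gave 147 coding features at 0 in all spermatogonia libraries and at 1 FPKM or more in all pachytene libraries. The other way round it gave 6. Neither these counts nor those of large folds were repeated with the spermatid share subtracted. That subtraction took the median log2 fold change of the 14 spermatid markers from 6.69 to 0.25. The groups did not overlap in 48.0% of features with pachytene above and in 40.4% with pachytene below.

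**Figure D1:**
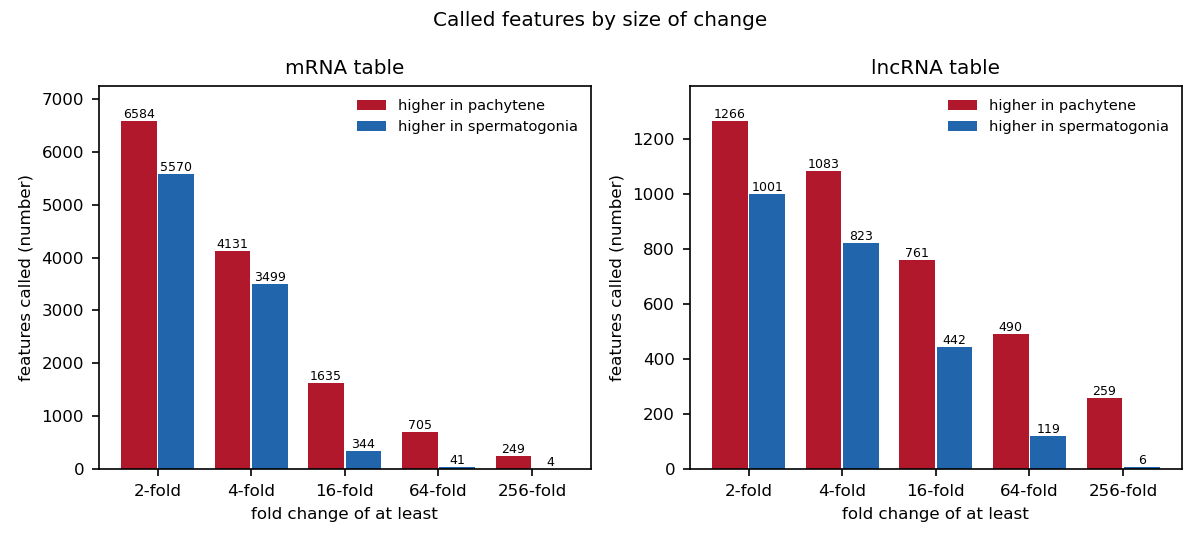
Number of features called higher in pachytene (red, left bars) and higher in spermatogonia (blue, right bars) at fold changes of at least 2, 4, 16, 64 and 256, in the mRNA table (left panel) and the lncRNA table (right panel), each axis linear and starting at 0. At 2-fold the counts in the mRNA table are 6584 and 5570, at 16-fold 1635 and 344, and at 256-fold 249 and 4. Large folds are not comparable between the panels, as the lncRNA table rests on far fewer fragments.

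Fewer coding genes were measurable in pachytene, and its 1000 highest features made up more of the output. Between 11122 and 11161 coding features reached 1 FPKM in pachytene libraries, against 11625 to 12103 in spermatogonia libraries. Spermatogonia replicates 2 and 3 were sequenced deepest by the estimate above. The share of these in summed FPKM was 57.8 to 58.6% in pachytene and 49.5 to 50.5% in spermatogonia, whereas that of the 100 highest overlapped, at 19.6 to 20.1% in pachytene and 17.6 to 19.9% in spermatogonia. Of the 10 highest coding features in pachytene, 9 rose. Ldhc, the lactate dehydrogenase of sperm, had the highest level, 4075, 4398 and 4247 FPKM in pachytene and 0.312, 0.485 and 0.262 FPKM in spermatogonia. Meig1, needed for sperm tail assembly, had 2183, 2173 and 2029 FPKM in pachytene, against 3.36, 3.61 and 3.39 FPKM in spermatogonia. Hist1h2ba, a testis form of histone H2B, had 3267, 3541 and 3078 FPKM in pachytene and 638, 569 and 518 FPKM in spermatogonia, and the chaperonin subunit Tcp1 had 2222, 2260.0 and 2145 FPKM in pachytene, against 181, 193 and 176 FPKM in spermatogonia. The highest in spermatogonia were mainly genes that every cell uses: Eef1a1, a translation elongation factor, was the highest there with 1770.0, 1782 and 1774 FPKM in pachytene and 1252, 1233 and 1209 FPKM in spermatogonia and was not called, and 6 ribosomal protein genes stand beside it.

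The largest rises with signal in all 6 libraries included genes of sperm and of germ granules. Adam2, a sperm surface protein, had 422, 421 and 414 FPKM in pachytene, against 0.0148, 0.00809 and 0.00728 FPKM in spermatogonia (log2 fold change 11.89, SE 0.0478, adjusted p = 1.94e-14). Pdcl2, a phosducin-like protein of spermatids, had 599, 575 and 560.5 FPKM in pachytene and 0.0755, 0.102 and 0.039 FPKM in spermatogonia (log2 fold change 11.73). Fbp1, a gluconeogenic phosphatase, had 595, 622 and 583 FPKM in pachytene, against 0.0568, 0.133 and 0.148 FPKM in spermatogonia. Each of these was within a narrow range among the pachytene libraries and under 0.15 FPKM in every spermatogonia library. Tdrd6, a germ granule protein, rose by 11.16 on the log2 scale and Zmynd10, an assembly factor of ciliary dynein, by 11.10. Against these stand the 10 largest falls, between -7.31 and -6.35 on the log2 scale, several of which encode matrix and blood proteins: Mmp2, a matrix protease, had 0.068, 0.0843 and 0.112 FPKM in pachytene and 21, 24 and 31 FPKM in spermatogonia, and Eln, elastin, had 0.275, 0.167 and 0.185 FPKM in pachytene, against 41.9, 29.4 and 34 FPKM in spermatogonia. Cyr61, a secreted matrix signal, had 1.02, 1.43 and 1.39 FPKM in pachytene and 189, 224 and 192 FPKM in spermatogonia, and the transmembrane protein Sel1l3 had 0.0181, 0.0112 and 0.0374 FPKM in pachytene, against 17.6, 21.7 and 18.6 FPKM in spermatogonia. Collagen gene Col1a2 and the globins Hba-a1 and Hbb-bs were also among the 10. They are themselves members of the fibroblast and red cell marker lists. Of 5 red cell markers, 4 were lower in pachytene and 1, Alas2, was higher. Another of the 10 falls, Fhl2, a LIM protein of muscle, had 0.349, 0.117 and 0.263 FPKM in pachytene and 13.3, 12.9 and 140.2 FPKM in spermatogonia. Its fall rested partly on spermatogonia replicate 3. The log2 fold change was -6.47, and -5.33 without that library.

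Of 207 coding features at 100 FPKM or more in both stages, 144 were not called. The 5 least changed were the initiation factor Eif4g2, the splicing protein Snrpe, the nucleic acid binding protein Cnbp and the ribosomal proteins Rps14 and Rpl31. Cnbp had 152, 153 and 152 FPKM in pachytene, against 150.4, 164 and 149.7 FPKM in spermatogonia, so the groups overlap.

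Receptors and adhesion molecules through which spermatogonia read their niche were more often lower than higher in pachytene. Of 45 tested, 33 fell, 2 rose and 10 were not called, against 31.0% down and 36.6% up over all features. Their median log2 fold change was -2.53, against 0.26 over all features. Mcam, an adhesion molecule, had 2.54, 2.02 and 2.49 FPKM in pachytene and 39.5, 35.7 and 31.8 FPKM in spermatogonia, and the tetraspanin Cd9 had 2.57, 2.74 and 2.08 FPKM in pachytene, against 34.1, 34.4 and 35.8 FPKM in spermatogonia. Met, the receptor of hepatocyte growth factor, had 0.357, 0.339 and 0.341 FPKM in pachytene and 6.38, 5.65 and 5.07 FPKM in spermatogonia, and Erbb3, a receptor of neuregulins, had 0.163, 0.163 and 0.116 FPKM in pachytene, against 2.66, 3.17 and 2.87 FPKM in spermatogonia. The stages do not overlap in any of these. The exceptions were Cdh2, N-cadherin, with 36.5, 34.4 and 35.6 FPKM in pachytene and 11.7, 14.8 and 23.6 FPKM in spermatogonia, and the growth factor receptor Fgfr4 with 0.716, 0.78 and 0.861 FPKM in pachytene, against 0.175, 0.149 and 0.241 FPKM in spermatogonia. Without spermatogonia replicate 1, Cdh2 had a log2 fold change of 0.92, under the threshold. Somatic cells also use many of these genes, and the somatic markers above were mostly higher in the same libraries. Members of this list were chosen with earlier results of these data known.

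Most listed transcription factors of spermatogonia fell, and most of those of meiotic and later cells rose. Both lists were drawn up by stage with earlier results of these data known, so their direction supports nothing by itself. Of 37 spermatogonial factors tested, 29 fell and 3 rose, against 31.0% down and 36.6% up over all features. Their median log2 fold change was -2.69. Id3, an inhibitor of helix-loop-helix factors, had 0.86, 1.16 and 0.977 FPKM in pachytene and 12, 12.5 and 18.2 FPKM in spermatogonia, and X-linked Rhox13, a homeobox gene, had 0.943, 1.51 and 1.12 FPKM in pachytene, against 17.9, 17.7 and 14.7 FPKM in spermatogonia. The 3 that rose were Id4, another such inhibitor, with 73.4, 74.5 and 77.8 FPKM in pachytene and 3.88, 4.19 and 3.03 FPKM in spermatogonia, Dmrtb1, a factor of the switch between mitosis and meiosis, with 339.9, 366 and 341 FPKM in pachytene, against 16.4, 15.1 and 11.6 FPKM in spermatogonia, and the zinc finger factor Egr4, with 23, 25.5 and 22.8 FPKM in pachytene and 7.9, 7.99 and 5.39 FPKM in spermatogonia.

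Among 35 factors of meiotic and postmeiotic transcription, 24 rose and 8 fell, against 36.6% up and 31.0% down over all features. Their median log2 fold change was 3.62. With the spermatid share subtracted, 19 rose and 12 fell. Mybl1, which encodes A-MYB, had 62.6, 59.5 and 57.4 FPKM in pachytene, against 5.77, 7.19 and 6.02 FPKM in spermatogonia, and Rfx2 had 89.9, 88.7 and 93.8 FPKM in pachytene and 1.45, 1.08 and 1.2 FPKM in spermatogonia. Rfx4 had 39.8, 40.4 and 42.5 FPKM in pachytene, against 0.0593, 0.0626 and 0.034 FPKM in spermatogonia and Rfx8 had 53.4, 54.3 and 55.2 FPKM in pachytene and 0.172, 0.0428 and 0.157 FPKM in spermatogonia, so both were under 0.2 FPKM in every spermatogonia library, while Rfx1 and Rfx3 were not called. Spz1, a bHLH-zip protein, had 53.6, 53.6 and 50.9 FPKM in pachytene, against 0, 0.011 and 0.00986 FPKM in spermatogonia, and averaged 585 FPKM in round spermatids. Tcfl5, a helix-loop-helix protein of spermatocytes, had 383, 373 and 377 FPKM in pachytene and 16.9, 16.3 and 12.8 FPKM in spermatogonia. Members that fell include Patz1, a zinc finger repressor, with 1.61, 2.22 and 2.1 FPKM in pachytene, against 24.8, 23.6 and 21.9 FPKM in spermatogonia, and X-linked Taf7l, a testis subunit of the TFIID complex, with 6.37, 6.19 and 6.75 FPKM in pachytene and 87.5, 86.1 and 67.8 FPKM in spermatogonia.

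**Figure D2:**
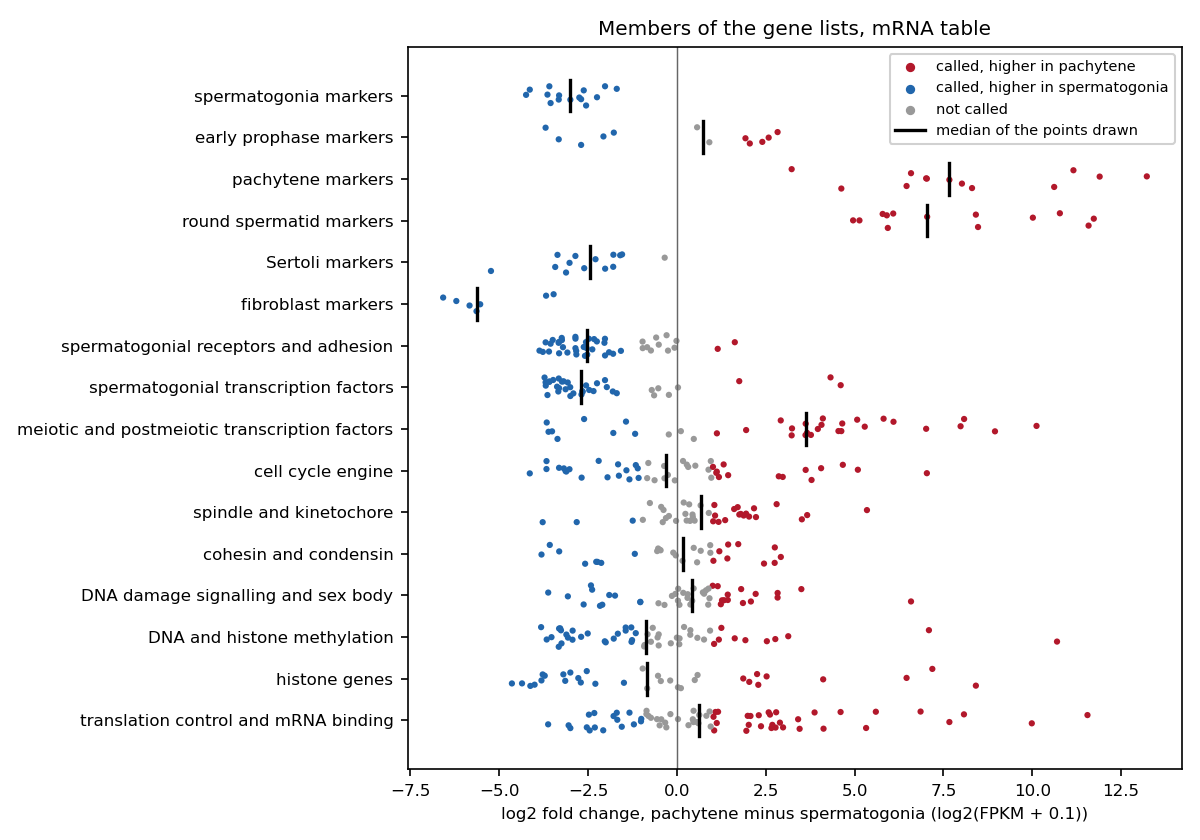
Log2 fold change (pachytene minus spermatogonia, log2(FPKM + 0.1)) of each member of 16 gene lists in the mRNA table, without features at 0 in a whole stage. Red points were called higher in pachytene, blue points higher in spermatogonia and grey points were not called; the black line is the median of the points drawn. Medians of the spermatogonial lists lie left of 0, with single members such as Id4 and Cdh2 right of it, pachytene and spermatid markers lie right of 0, and cell cycle, cohesin and histone genes on both sides.

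Genes of the cell cycle engine were divided. Of 46 tested, 14 rose, 18 fell and 14 were not called, near the 36.6% up and 31.0% down over all features, with a median log2 fold change of -0.30, and 9 rose and 21 fell under quantile normalization. Genes of the passage through G1 were among those that fell. E2f1, a transcription factor of S phase entry, had 0.476, 0.706 and 0.513 FPKM in pachytene, against 8.43, 9.03 and 7.48 FPKM in spermatogonia, E2f3 had 0.447, 0.329 and 0.453 FPKM in pachytene and 6.84, 6.14 and 6.12 FPKM in spermatogonia, and Ccnd1, cyclin D1, had 1.23, 1.52 and 1.37 FPKM in pachytene, against 14.4, 14.3 and 14.9 FPKM in spermatogonia. Partners of the meiotic divisions and inhibitors of cyclin D kinases were among those that rose. Spdya, an activator of CDK2 at telomeres, had 139.6, 138 and 135 FPKM in pachytene and 4.19, 4.14 and 3.52 FPKM in spermatogonia. Cdkn2c, the inhibitor p18, had 196, 199 and 196 FPKM in pachytene, against 7.3, 7.93 and 7.76 FPKM in spermatogonia, and Cdkn2d, the inhibitor p19, had 101, 105 and 106 FPKM in pachytene and 8.44, 8.43 and 8.19 FPKM in spermatogonia. Cks2, a small partner of CDKs needed in meiosis, had 478, 505 and 468 FPKM in pachytene, against 69.3, 64.2 and 52 FPKM in spermatogonia. In each of these 4 the pachytene libraries lie well above all spermatogonia libraries, without overlap.

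Spindle and kinetochore genes rose in 18 of 39 cases and fell in 3, against 36.6% up and 31.0% down over all features. Their median log2 fold change was 0.67, although 9 rose and 9 fell under quantile normalization. Aurkc, the aurora kinase of meiotic cells, had 25.2, 23.1 and 23.5 FPKM in pachytene and 0.494, 0.511 and 0.467 FPKM in spermatogonia, and Aurka, the aurora kinase of spindle poles, had 149, 147 and 150.0 FPKM in pachytene, against 12, 13.1 and 10.1 FPKM in spermatogonia. Nuf2, an outer kinetochore protein, had 66.4, 61.6 and 65.7 FPKM in pachytene and 9.1, 9.78 and 8.6 FPKM in spermatogonia. Among those that fell were Cenpa, the histone that marks centromeres, with 1.91, 2.13 and 1.71 FPKM in pachytene, against 28.3, 28.5 and 25.7 FPKM in spermatogonia, and Plk3, a polo-like kinase, with 0.362, 0.477 and 0.329 FPKM in pachytene and 3.38, 3.46 and 3.16 FPKM in spermatogonia.

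Cohesin, the ring that holds sister chromatids, and condensin, which compacts them, had 9 of 29 members higher and 8 lower, near the 36.6 and 31.0% of all features, and 5 higher and 13 lower under quantile normalization. Stag3, the meiotic subunit of cohesin, had 282, 289 and 275 FPKM in pachytene, against 54, 54 and 46.9 FPKM in spermatogonia. Its X-linked mitotic counterpart Stag2 had 2.58, 3.05 and 2.67 FPKM in pachytene and 29.1, 28.5 and 27.5 FPKM in spermatogonia. Rad21l, a meiotic kleisin of early prophase, had 0.369, 0.458 and 0.502 FPKM in pachytene, against 7.83, 7.69 and 6.98 FPKM in spermatogonia, and the mitotic kleisin Rad21 had 10.4, 9.53 and 11.1 FPKM in pachytene and 48.6, 52.4 and 46 FPKM in spermatogonia, so both fell. The third kleisin, Rec8, had 6.48, 5.48 and 6.74 FPKM in pachytene, against 4.11, 4.9 and 3.58 FPKM in spermatogonia and was not called. Nipbl, the cohesin loader, had 78.6, 71 and 73.1 FPKM in pachytene and 10.6, 10.7 and 11.4 FPKM in spermatogonia, and the condensin subunit Smc4 had 302, 279 and 259 FPKM in pachytene, against 41.6, 42.4 and 40.4 FPKM in spermatogonia. Pttg1, securin, which restrains separase until anaphase, had 186, 199 and 193 FPKM in pachytene and 24.5, 23.1 and 28.6 FPKM in spermatogonia.

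DNA damage signalling genes, which act on unpaired chromosome axes, rose in 15 and fell in 11 of 45 cases, near the 36.6% up and 31.0% down over all features, against 8 and 12 under quantile normalization. Members of the pathway to the sex body stood on both sides. The kinase Atr, which coats unsynapsed axes, had 242, 234 and 236 FPKM in pachytene, against 51, 54.6 and 47.8 FPKM in spermatogonia, and Mdc1, which spreads the signal over the chromatin of the sex chromosomes, had 71.7, 69.6 and 75.5 FPKM in pachytene and 11, 10.4 and 8.88 FPKM in spermatogonia. Hormad1, which recruits ATR to the axes, had 163, 156 and 153 FPKM in pachytene, against 24.1, 22.5 and 19.8 FPKM in spermatogonia. By contrast the kinase Atm, which answers DNA breaks, had 4.12, 2.55 and 3.46 FPKM in pachytene and 29.1, 31.9 and 25.1 FPKM in spermatogonia, Brca1 had 4.24, 3.07 and 4.36 FPKM in pachytene, against 18.9, 17 and 14.8 FPKM in spermatogonia, and X-linked Scml2, a germline Polycomb protein, had 4.09, 4.21 and 4.41 FPKM in pachytene and 56.8, 55.7 and 48 FPKM in spermatogonia. The stages do not overlap in these genes, also picked among those called.

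Enzymes of DNA and histone methylation were lower more often, with 24 of 52 down and 10 up, against 31.0 and 36.6% over all features, and a median log2 fold change of -0.87. All 3 Tet dioxygenases, which oxidise methylcytosine, fell, Tet3 with 1.1, 0.973 and 0.979 FPKM in pachytene, against 12.9, 13.4 and 12.1 FPKM in spermatogonia. The de novo methyltransferases fell too, Dnmt3a with 1.75, 1.77 and 1.99 FPKM in pachytene and 19.8, 19.3 and 18.5 FPKM in spermatogonia and Dnmt3b with 2.8, 1.98 and 2.7 FPKM in pachytene, against 17.5, 18.3 and 14.2 FPKM in spermatogonia. Histone H3 lysine 4 methyltransferase Kmt2a had 0.532, 0.431 and 0.48 FPKM in pachytene and 7.35, 7.26 and 7.17 FPKM in spermatogonia. The demethylases divided: X-linked Kdm6a and Kdm5c and Y-linked Kdm5d fell, whereas Kdm4d, a testis demethylase, had 94.8, 96.4 and 99 FPKM in pachytene, against 0.632, 0.658 and 0.546 FPKM in spermatogonia, and Kdm3a, needed for activating genes of spermatids, had 116, 116 and 119.8 FPKM in pachytene and 12.9, 13.8 and 13.2 FPKM in spermatogonia. Morc2b, a MORC ATPase of meiosis, had 175, 168 and 182 FPKM in pachytene, against 0, 0.00465 and 0.0124 FPKM in spermatogonia. The muscle gene Smyd1 was called higher in pachytene with 9.79, 9.87 and 10.4 FPKM in pachytene and 0.363, 0.358 and 15.3 FPKM in spermatogonia, so spermatogonia replicate 3 lay above every pachytene library, and without that library its log2 fold change was 4.46 (limma adjusted p = 1.19e-09). Over all 6 libraries it was 2.77 (limma adjusted p = 0.0458), and without any other single library the call was lost, at adjusted p = 0.089 to 0.16.

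Of 34 histone genes tested, 10 rose and 15 fell, against 36.6% up and 31.0% down over all features. Hist1h1t, the linker histone of spermatocytes, had 2059, 1961 and 1900.0 FPKM in pachytene, against 25.7, 21.8 and 19.7 FPKM in spermatogonia, while Hist1h1a, a linker histone of dividing cells, had 85.9, 97.3 and 81 FPKM in pachytene and 1272, 1163 and 1054 FPKM in spermatogonia. Hist1h3b, a replication-linked histone H3 gene, had 3.03, 3.7 and 2.18 FPKM in pachytene, against 60.2, 87.4 and 80.7 FPKM in spermatogonia, and Hist1h1b had 1.68, 1.95 and 2.55 FPKM in pachytene and 45.8, 45.6 and 39.8 FPKM in spermatogonia. Cluster histone genes have near-identical copies that can share reads, so their levels are uncertain. H2afz, a replacement variant of H2A, had 473, 537 and 472 FPKM in pachytene, against 108, 102 and 92.8 FPKM in spermatogonia. H2afb1, a short H2A variant of spermatids, had 16.5, 18.8 and 16 FPKM in pachytene and was listed at 0 in all 3 spermatogonia libraries, beside 189 FPKM in round spermatids.

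Genes of proteins that bind and store mRNA moved both ways. Of 69 genes, 31 rose and 17 fell, against 36.6% up and 31.0% down over all features; their median log2 fold change was 0.63, though 25 rose and 24 fell under quantile normalization. Several families kept a member in each direction. Poly(A)-binding Pabpc6 had 405, 391 and 401 FPKM in pachytene and 0.364, 0.31 and 0.221 FPKM in spermatogonia, whereas Pabpc4 had 1.54, 1.74 and 1.58 FPKM in pachytene, against 19.6, 17.9 and 26.9 FPKM in spermatogonia. Scaffold Eif4g3, the partner of the cap-binding factor eIF4E, had 60.4, 54.9 and 59.7 FPKM in pachytene and 8.93, 8.32 and 7.79 FPKM in spermatogonia, and its relative Eif4g1 had 28.7, 27 and 28.2 FPKM in pachytene, against 56.7, 57 and 55.8 FPKM in spermatogonia. The Argonaute Ago4 had 14.5, 14 and 16.3 FPKM in pachytene and 2.19, 2.3 and 2.33 FPKM in spermatogonia, while Ago1 had 0.956, 0.926 and 0.957 FPKM in pachytene, against 5.3, 6.26 and 5.68 FPKM in spermatogonia. Igf2bp3 had 21.6, 22.1 and 22.2 FPKM in pachytene and 4.4, 4.65 and 4.09 FPKM in spermatogonia, and Igf2bp1 had 1.11, 1.47 and 1.32 FPKM in pachytene, against 8.91, 7.44 and 7.65 FPKM in spermatogonia. The stages do not overlap in these genes, which were picked among those called. Ybx3, a Y-box protein, had 818, 780.0 and 805 FPKM in pachytene and 15.5, 16 and 18 FPKM in spermatogonia, and Boll, a relative of Dazl, had 442, 422 and 422 FPKM in pachytene, against 25.5, 27.1 and 21.2 FPKM in spermatogonia, whereas Dazl itself had 65.2, 62.1 and 62.1 FPKM in pachytene and 191, 204 and 163 FPKM in spermatogonia.

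Many testis genes are copies of genes that other tissues use, often retrocopies of X-linked ones, and here the copies took over most of their pair's transcripts. Of 46 pairs of a testis copy and a broadly used gene, both in the mRNA table with at least 5 FPKM for a member, 44 testis copies were tested. Of these 37 rose and 4 fell, while 32 of 45 broad copies fell and 9 rose. Over all features 36.6% rose and 31.0% fell, and the pairs were chosen with earlier results of these data known. The testis copy rose and its broad copy fell together in 28 pairs, and in 7 pairs both copies rose. With the spermatid share subtracted, 35 testis copies rose and 5 fell, and the shares within pairs were not recomputed. The testis copy held over 50% of the pair's FPKM in 36 pairs in pachytene and in 9 in spermatogonia. All 15 X-linked broad copies fell, against 17 of 30 autosomal ones, of which 9 rose and 4 were not called. Of all X-linked coding features tested, 73.6% fell. Reads that fit both copies of a pair could be counted for either, which limits the precision of a share.

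**Figure D3:**
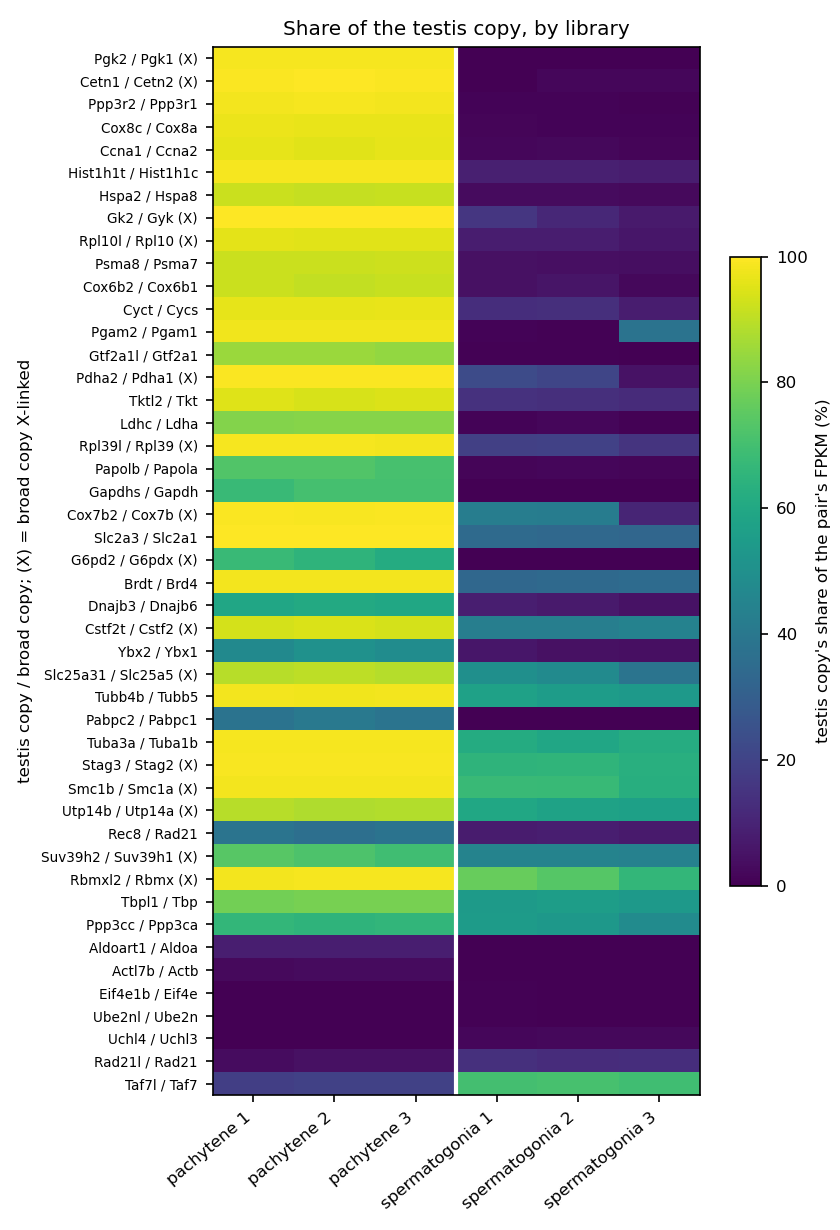
Share of the testis copy in the summed FPKM of its pair, in percent (colour, 0 to 100), for 46 pairs (rows) in 3 pachytene libraries (left) and 3 spermatogonia libraries (right); (X) marks an X-linked broad copy. Pgk2 holds 98.6 to 98.7% of its pair in pachytene and 0 to 0.151% in spermatogonia, while at the bottom Taf7l holds 18.5 to 19.5% and 69.3 to 70.8%.

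Several of these pairs belong to glycolysis and its neighbours in energy metabolism. Phosphoglycerate kinase Pgk2 had 178, 177 and 172 FPKM in pachytene, against 0.0236, 0.0134 and 0 FPKM in spermatogonia, while X-linked Pgk1 had 2.61, 2.41 and 2.48 FPKM in pachytene and 15.6, 17 and 39.2 FPKM in spermatogonia. Pyruvate dehydrogenase subunit Pdha2 had 188, 192 and 187 FPKM in pachytene, against 3.28, 2.97 and 2.7 FPKM in spermatogonia, and X-linked Pdha1 had 1.17, 1.28 and 1.07 FPKM in pachytene and 11, 11.3 and 52.3 FPKM in spermatogonia. Spermatogonia replicate 3 is highest for both X-linked genes, and the pachytene libraries lie below all 3 spermatogonia libraries for each. Without it the log2 fold change of Pdha1 was -3.15, against -3.89 with all libraries. Gk2, glycerol kinase of the testis, had 533, 554 and 534 FPKM in pachytene, against 0.393, 0.278 and 0.359 FPKM in spermatogonia, and X-linked Gyk had 0.32, 0.204 and 0.0841 FPKM in pachytene and 2.08, 2.21 and 4.56 FPKM in spermatogonia. Slc2a3, a glucose transporter of high affinity, had 1957, 2086 and 2068 FPKM in pachytene, against 4.18, 4.12 and 3.55 FPKM in spermatogonia, and the broadly used Slc2a1 had 1.59, 1.38 and 2.05 FPKM in pachytene and 7.94, 8.07 and 7.22 FPKM in spermatogonia. Lactate dehydrogenase is an exception in kind: Ldha rose as well, with 919, 981 and 938 FPKM in pachytene, against 28.8, 29.2 and 65.3 FPKM in spermatogonia, and Ldhc held 81.6 to 81.9% of the pair in pachytene and 0.399 to 1.64% in spermatogonia. Gapdhs, the glycolytic enzyme of the sperm tail, had 35.8, 44.5 and 38.3 FPKM in pachytene and 0, 0 and 0.0374 FPKM in spermatogonia, and belongs to the spermatid markers whose fraction of the spermatid level is given above.

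Ribosomes and RNA processing had switches of the same form. Rpl10l, a ribosomal protein, had 346, 340.2 and 337 FPKM in pachytene, against 21.7, 21.7 and 16.9 FPKM in spermatogonia, while X-linked Rpl10 had 14.7, 16.2 and 15.6 FPKM in pachytene and 248, 251 and 258 FPKM in spermatogonia. Rpl39l had 543, 591 and 571 FPKM in pachytene, against 38.6, 38.2 and 30.8 FPKM in spermatogonia, while X-linked Rpl39 had 7.41, 8.7 and 9.6 FPKM in pachytene and 164, 158 and 172 FPKM in spermatogonia. Papolb, a poly(A) polymerase, had 132, 129.7 and 128 FPKM in pachytene, against 0.832, 1.31 and 0.98 FPKM in spermatogonia, while autosomal Papola had 49.5, 48.6 and 52.4 FPKM in pachytene and 65.5, 72.2 and 67 FPKM in spermatogonia and was not called. Utp14b, needed for ribosomal RNA processing and for sperm formation, had 9.73, 8.59 and 9.97 FPKM in pachytene, against 7.68, 7.68 and 6.61 FPKM in spermatogonia, below the 2-fold threshold, and X-linked Utp14a fell, with 1.19, 1.17 and 1.32 FPKM in pachytene and 5.24, 5.64 and 4.99 FPKM in spermatogonia. Other exceptions were Taf7l, which is itself X-linked and fell, Rad21l and Suv39h2, which fell with their counterparts, and Uchl4, at under 1 FPKM in every library. Eif4e1b and Ube2nl were too low to test.

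Promoter sequences of the pairs Pgk2 and Pgk1 and Rpl10l and Rpl10 are shown because each pair has a member on either side of the switch. Those of Ldhc, the highest pachytene gene, and of Pdcl2, among the largest rises, hold the most matches to motifs of A-MYB and RFX among 6 windows shown. They are RefSeq windows of 300 bases on GRCm38.p6, 250 bases before to 50 after the start of the gene, given 5′ to 3′ on the gene's own strand. Capitals mark matches on either strand to AACNG, the core bound by Myb factors, or to GTTGCC, a part of the site of RFX factors; both motifs can overlap. Windows lie at chr17:40208560-40208859 for Pgk2 on the minus strand, chrX:106186850-106187149 for Pgk1 on the plus strand, chr12:66284352-66284651 for Rpl10l on the minus strand, chrX:74270566-74270865 for Rpl10 on the plus strand, chr7:46861013-46861312 for Ldhc on the plus strand and chr5:76331107-76331406 for Pdcl2 on the minus strand, in the order printed.
Pgk2: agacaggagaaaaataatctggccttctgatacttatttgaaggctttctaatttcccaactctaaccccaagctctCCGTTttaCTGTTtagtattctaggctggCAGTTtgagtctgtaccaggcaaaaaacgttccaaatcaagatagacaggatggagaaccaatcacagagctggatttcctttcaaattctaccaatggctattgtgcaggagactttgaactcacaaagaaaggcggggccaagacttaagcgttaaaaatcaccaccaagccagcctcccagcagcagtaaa
Pgk1: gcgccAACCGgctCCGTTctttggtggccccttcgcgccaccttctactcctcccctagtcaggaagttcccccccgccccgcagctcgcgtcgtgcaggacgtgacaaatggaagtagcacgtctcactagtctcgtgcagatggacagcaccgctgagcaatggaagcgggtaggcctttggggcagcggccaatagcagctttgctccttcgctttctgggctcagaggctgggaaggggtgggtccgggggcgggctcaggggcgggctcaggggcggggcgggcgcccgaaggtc
Rpl10l: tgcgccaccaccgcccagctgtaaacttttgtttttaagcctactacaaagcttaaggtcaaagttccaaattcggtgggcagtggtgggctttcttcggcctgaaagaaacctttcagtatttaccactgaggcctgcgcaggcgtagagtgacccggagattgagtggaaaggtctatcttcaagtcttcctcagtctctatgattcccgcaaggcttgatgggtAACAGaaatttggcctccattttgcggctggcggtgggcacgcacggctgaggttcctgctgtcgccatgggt
Rpl10: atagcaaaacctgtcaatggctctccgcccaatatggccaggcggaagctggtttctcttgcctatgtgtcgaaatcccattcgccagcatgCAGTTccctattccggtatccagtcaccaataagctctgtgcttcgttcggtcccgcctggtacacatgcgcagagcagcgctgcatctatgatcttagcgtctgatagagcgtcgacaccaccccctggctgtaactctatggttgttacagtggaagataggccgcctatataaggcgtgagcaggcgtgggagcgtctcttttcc
Ldhc: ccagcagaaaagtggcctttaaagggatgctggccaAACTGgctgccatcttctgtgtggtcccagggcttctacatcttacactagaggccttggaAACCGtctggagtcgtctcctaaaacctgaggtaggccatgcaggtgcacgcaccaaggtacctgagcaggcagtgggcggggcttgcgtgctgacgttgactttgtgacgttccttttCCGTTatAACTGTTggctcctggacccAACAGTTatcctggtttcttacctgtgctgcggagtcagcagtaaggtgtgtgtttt
Pdcl2: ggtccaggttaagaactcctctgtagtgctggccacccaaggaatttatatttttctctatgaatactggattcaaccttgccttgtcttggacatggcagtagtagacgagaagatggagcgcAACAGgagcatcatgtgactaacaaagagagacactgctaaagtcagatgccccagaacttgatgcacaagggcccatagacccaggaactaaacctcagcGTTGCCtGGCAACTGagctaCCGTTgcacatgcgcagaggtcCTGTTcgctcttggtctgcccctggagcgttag

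These windows differ in base composition within a pair. Pgk2 has 43.0% G or C and 4 CpG dinucleotides, against 66.7% and 24 for Pgk1. Rpl10l has 52.0% and 13, close to Rpl10 with 53.7% and 17. The Ldhc window holds 7 matches to AACNG, and that of Pdcl2 holds 4 beside 2 matches to GTTGCC. Windows of 11558 of the 14808 coding features tested were searched. AACNG is common: it was in 86.2% of 959 windows of rises of at least 16-fold, 79.0% of 186 windows of falls of at least 16-fold and 77.9% of all. GTTGCC was in 23.6%, 8.6% and 13.5% of the same sets. TGACGTCA, the cAMP response element, was in 2.4%, 2.69% and 3.08%, and CACGTG, the palindromic E-box, in 8.34%, 5.91% and 9.69%. Both of the first motifs were in 211 windows of the rises, overlapping in 95. Windows of those rises had a median of 54.7% G or C and 9 CpG dinucleotides, against 60.2% and 15 for the falls and 60.0% and 19 over all, so composition differed with direction, and its part in the motif shares was not tested. A match is a string of letters and no measured site.

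X-linked coding genes were mostly lower in pachytene. Of 625 X-linked coding features tested, 460 fell (73.6%) and 107 rose (17.1%), with a median log2 fold change of -2.57, against 31.2% down, 35.6% up and a median of 0.21 for autosomal coding features. The filter counted all 9 libraries, so features could enter through round spermatids. With the 6 compared libraries alone in the filter and fit, 569 X-linked coding features were tested, of which 76 rose and 457 fell. The X chromosome supplied 0.294 to 0.298% of coding FPKM in pachytene libraries and 3.16 to 3.25% in spermatogonia libraries. Between 298 and 304 X-linked coding features reached 1 FPKM in pachytene, and 468 to 479 in spermatogonia. Over all 795 X-linked features, the X minus autosome difference of median log2 values was -2.53 ± 0.047 in pachytene and -0.58 ± 0.106 in spermatogonia (SD, n = 3 each), a difference of -1.95 (exact permutation test, two-sided, p = 0.1, the smallest that 3 libraries against 3 allow). Without the filter on low values the difference was -0.30, with the same p. Medians of the autosomes, over features of all types, lay between 0.04 for chromosome 13 and 0.57 for chromosome 14.

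**Figure D4:**
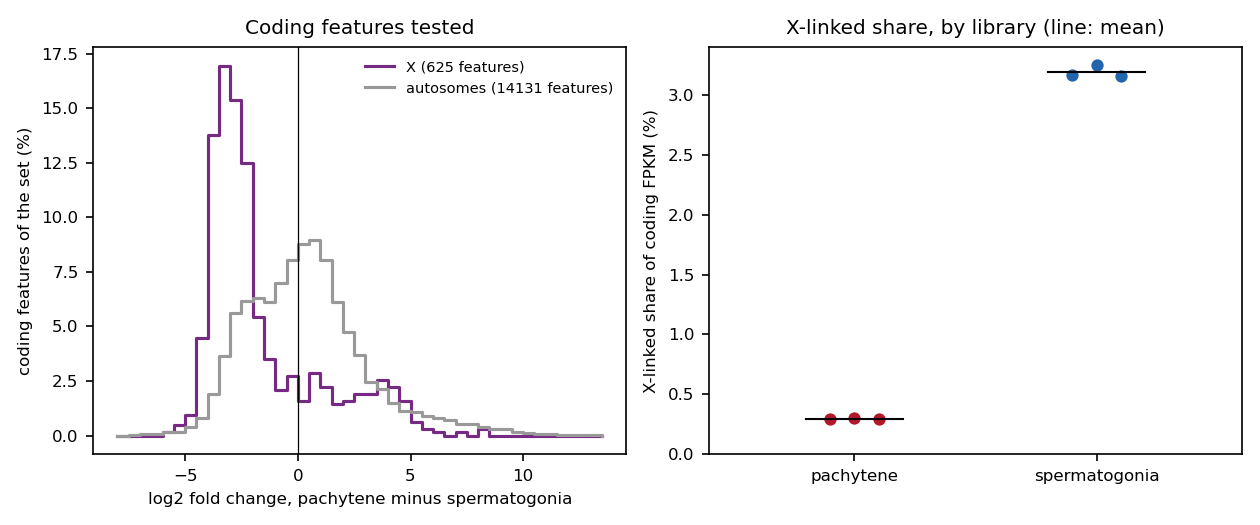
Left, distribution of log2 fold changes (pachytene minus spermatogonia) of 625 X-linked (purple) and 14131 autosomal (grey) coding features, in percent of each set per bin. Right, X-linked share of summed coding FPKM in each library (points, with the mean as a line), 0.294 to 0.298% in the 3 pachytene libraries and 3.16 to 3.25% in the 3 spermatogonia libraries.

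Pachytene levels of X-linked genes were low but seldom 0. Of 91 X-linked coding features with at least 20 FPKM in spermatogonia, 6 stood in pachytene at 2 to 5% of their spermatogonia level, 31 at 5 to 10% and 54 above 10%, with a median of 10.8%, the lowest at 2.38%. Of the 2830 coding features of all chromosomes at that level, the median was 94.3% and 46 were under 2%. The 15 markers of spermatogonia lay in much the same range as the X-linked genes, with a median of 11.9%, so a silenced X-linked gene and RNA of spermatogonia in the pachytene libraries cannot be told apart by level alone.

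The X-linked features that rose differed in their round spermatid level. Of the 107, 18 reached 5 FPKM in pachytene, and 11 of these stood at 7.76 to 9.44% of their round spermatid level, with Tmsb15a at 10%. Akap4, a scaffold of the sperm tail sheath, had 41.4, 43.2 and 41.1 FPKM in pachytene, against 0.0671, 0.0296 and 0.0277 FPKM in spermatogonia and averaged 480 FPKM in round spermatids. Tsga8 had 45.7, 53.4 and 46.9 FPKM in pachytene and 0.194, 0.366 and 0.193 FPKM in spermatogonia and averaged 521 FPKM in round spermatids. With the spermatid share subtracted, 31 X-linked coding features rose in place of 107, and 486 fell. At a pseudocount of 1 FPKM 61 rose and 411 fell. With a filter of 1 FPKM in 3 of the 6 libraries compared, 58 of 513 rose and 424 fell. The other 6 of the 18 were higher in pachytene than in round spermatids, at 166 to 271% of the spermatid level. Tsx, a testis gene beside the X-inactivation centre, had 11, 9.85 and 10.6 FPKM in pachytene, against 1.11, 1.2 and 0.919 FPKM in spermatogonia. Gm14698 had 29.2, 27.1 and 27.1 FPKM in pachytene and 7.43, 8 and 8.16 FPKM in spermatogonia and Gm9112 had 19.1, 20.9 and 16.1 FPKM in pachytene, against 1.75, 2.15 and 1.93 FPKM in spermatogonia. Dmrtc1b, of the DMRT family, averaged 5.34 FPKM in pachytene, 0.181 in spermatogonia and 1.97 in round spermatids. Gm3880 and Alas2, the erythroid enzyme of haem synthesis, complete the set, and Alas2 was 4.8 FPKM in spermatogonia replicate 3 against at most 2.17 FPKM in the other 2. Its log2 fold change of 1.01 lost its call when any of 4 libraries was left out, at 0.69 to 0.98.

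**Figure D5:**
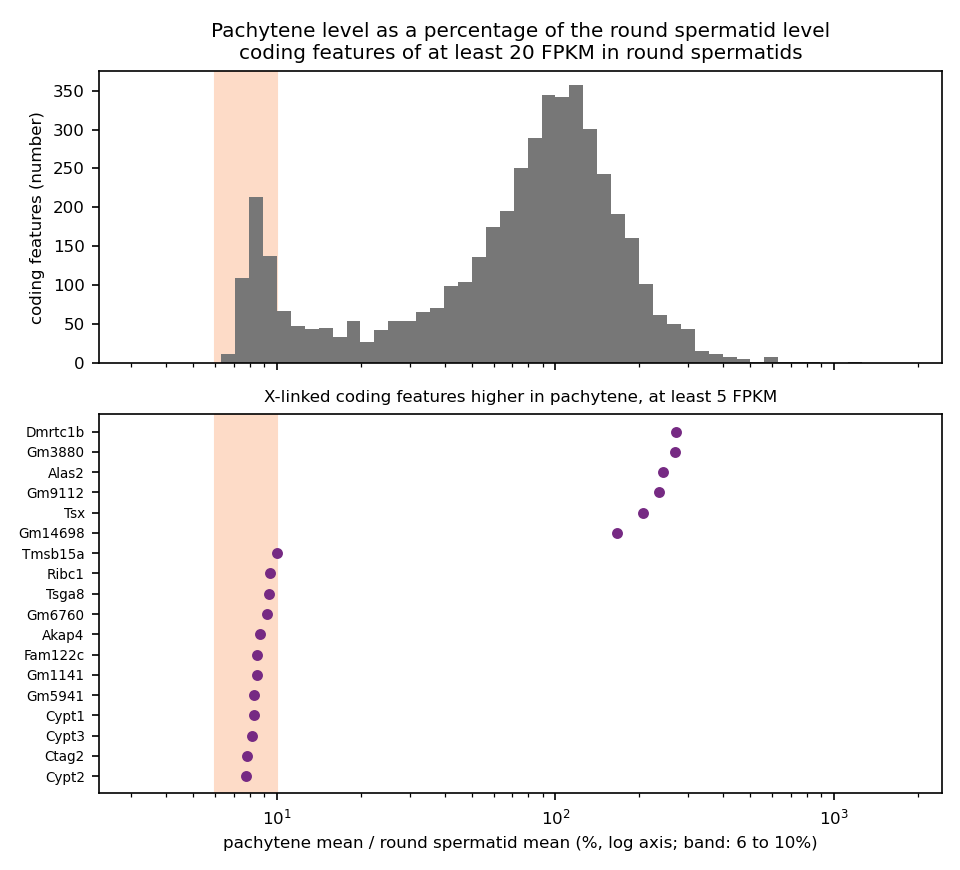
Pachytene mean as a percentage of the round spermatid mean (log axis, band from 6 to 10%). Top, number of the 4571 coding features with at least 20 FPKM in round spermatids per bin, with a peak inside the band and none under 6%. Bottom, the 18 X-linked coding features called higher in pachytene with at least 5 FPKM, of which 11 lie in the band, Tmsb15a at its edge and 6 at 166 to 271%.

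On the Y chromosome, single-copy genes fell. Of 9 listed Y-linked genes tested, 8 fell: Uty, a demethylase relative, had 1.58, 1.52 and 1.37 FPKM in pachytene and 17.1, 19.6 and 19.8 FPKM in spermatogonia, Ddx3y, an RNA helicase, had 2.06, 1.85 and 1.94 FPKM in pachytene, against 20.6, 22.4 and 25.5 FPKM in spermatogonia, and Eif2s3y, a translation initiation subunit needed in spermatogonia, had 7.71, 8.17 and 7.66 FPKM in pachytene and 43.7, 47.6 and 42.6 FPKM in spermatogonia. The exception was Sly, a multicopy gene of spermatids, with 0.642, 0.537 and 0.485 FPKM in pachytene and listed at 0 in spermatogonia. With the 6 compared libraries alone in the filter and fit, Sly was not tested, and all 8 listed genes tested fell. Over all 110 Y-linked features tested, 69 rose and 12 fell. Of the 69, which are mostly unnamed members of near-identical families that can share reads, 52 stood at 6 to 10% of the spermatid level, and 7 rose with the spermatid share subtracted.

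Long non-coding RNAs changed in both directions, with the largest changes mainly upward. In the lncRNA table, 1266 of 4009 features rose (31.6%) and 1001 fell (25%), around a median log2 fold change of -0.02. Under equal library medians 1156 rose and 1201 fell, and under quantile normalization 1076 and 1334, with medians of -0.39 and -0.69. The balance also depended on the table. Of 1623 features tested in both tables, 745 rose and 350 fell here, against 843 and 299 in the mRNA table. Their median difference in log2 fold change, lncRNA minus mRNA table, was -0.38. Features annotated as lincRNA rose in 54.6% and fell in 19.3% of cases in the mRNA table, against 36.7 and 22.1% here. Antisense features rose in 53.6% and fell in 15.8% there, against 29.4 and 24.9% here. Changes of at least 256-fold were 259 rises and 6 falls, and 315 features were listed at 0 in all spermatogonia libraries with 1 FPKM or more in all pachytene libraries, against 175 the other way round. The steps between low values of this table imply about 0.887, 0.797 and 0.787 M fragments in the pachytene libraries. In the spermatogonia libraries they imply 0.56, 1.01 and 1.35 M. Pseudocount and filter were those of the mRNA table, though 1 FPKM is here near 1 fragment on a transcript of a kilobase. Large folds and counts at 0 are thus not comparable with those of the mRNA table. The spermatid share was not computed for this table. The largest rise with signal in some spermatogonia library was RP24-176G22.2, at 27810.0, 30820.0 and 44670.0 FPKM in pachytene and 0, 1.78 and 1.41 FPKM in spermatogonia on the scale of this table. 1700051A21Rik had 3009, 2212 and 1748 FPKM in pachytene and 0, 0.76 and 0 FPKM in spermatogonia. One of the larger falls was RP23-28L24.8, with 0, 0 and 19 FPKM in pachytene and 234, 166 and 245 FPKM in spermatogonia. X-linked lncRNAs fell like the coding genes, with 62 of 117 lower, 16 higher and a median log2 fold change of -2.74.

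In the lncRNA table, known lncRNAs fell more often than they rose. Of 48 tested, 25 fell, 7 rose and 16 were not called, against 25% down and 31.6% up over the table, with a median log2 fold change of -1.15. Among imprinted transcripts, H19 had 17.1, 11.9 and 13.8 FPKM in pachytene and 2626, 1878 and 1238 FPKM in spermatogonia, Meg3 had 8.21, 1.08 and 5.38 FPKM in pachytene and 107, 104 and 99.4 FPKM in spermatogonia, and Airn had 1.55, 3.96 and 9.33 FPKM in pachytene and 91.6, 88.3 and 165 FPKM in spermatogonia. Rian and Kcnq1ot1 also fell, while Nespas, antisense to Nesp, rose with 429.5, 354 and 305 FPKM in pachytene and 142, 142 and 66.3 FPKM in spermatogonia. Xist and Ftx of the X-inactivation centre fell, Xist with 0.135, 0 and 0.512 FPKM in pachytene and 5.02, 10.4 and 10.9 FPKM in spermatogonia and Ftx with 10.2, 4.53 and 8.91 FPKM in pachytene and 68.6, 62.3 and 83.8 FPKM in spermatogonia. X-linked Firre, an organiser of nuclear contacts, had 47.7, 37.5 and 38 FPKM in pachytene and 387, 360.0 and 222 FPKM in spermatogonia. Germ cells and somatic cells both can supply these RNAs, and the somatic markers of the spermatogonia libraries are given above.

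Among hosts of small nucleolar RNAs, those called in this table include Snhg1, with 233, 300.1 and 305 FPKM in pachytene and 2621, 2102 and 2147 FPKM in spermatogonia, and Snhg4 with 833, 858 and 1191 FPKM in pachytene and 9678, 10500.0 and 11790.0 FPKM in spermatogonia. Gas5 lost its call without spermatogonia replicate 1 or 2, at log2 fold changes of -0.86 and -0.94 (limma adjusted p = 0.0494 and 0.0531). For Gas5, Snhg6 and Snhg12 the call did not hold in the mRNA table, where the log2 fold changes were -0.61, -0.80 and -0.03. Features annotated as small nucleolar RNAs, in the mRNA table, fell in 96 of 139 cases and rose in 3, against 31.0% down over all features. Whether the values of such features measure the mature RNAs was not tested. Known lncRNAs that rose include Crnde, with 784, 642 and 789.8 FPKM in pachytene and 67.1, 63.4 and 55.5 FPKM in spermatogonia, Pvt1 beside Myc, with 162, 187 and 215 FPKM in pachytene and 32.5, 26 and 26.7 FPKM in spermatogonia, and Sox2ot, which overlaps Sox2, with 94.3, 109.7 and 124 FPKM in pachytene and 2.41, 0.355 and 6.34 FPKM in spermatogonia. Of 1623 features tested in both tables, 993 were called in both, 2 of them in opposite directions.

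LncRNAs that start beside a coding gene on the opposite strand and point away from it mostly moved as the gene did, among those called. Starts lay within 1000 bases in 408 such pairs. In 186 of them both were called, and 150 (80.6%) went the same way, 94 up and 56 down. In 17 the lncRNA rose and the gene fell, and in 19 the reverse. With windows of 500 and 2000 bases, 80.2% and 79.2% went the same way. Among the lncRNAs of the 408 pairs, 170 rose and 97 fell, and among their genes 151 rose and 110 fell. Part of the agreement would thus arise without any link between partners, and how large a part was not tested. Each table was fitted on its own scale, and the labels do not state strand use in the counting, so reads that cross the shared start could count for both partners. Med9os had 3940.0, 3522 and 3752 FPKM in pachytene and 56.2, 45.7 and 27.2 FPKM in spermatogonia, and Med9, a Mediator subunit whose start lies 64 bases away, had 42.4, 43.7 and 43.2 FPKM in pachytene, against 9.4, 11.1 and 9.83 FPKM in spermatogonia. Cep83os, 78 bases from Cep83, had 2742, 2994 and 3029 FPKM in pachytene and 149.7, 162 and 133 FPKM in spermatogonia, and Cep83, a centriole protein, had 44.6, 42.1 and 43.8 FPKM in pachytene and 15.6, 15.3 and 14.2 FPKM in spermatogonia. Gm13267 had 2526, 2508 and 2542 FPKM in pachytene and 27.8, 22.8 and 5.45 FPKM in spermatogonia, while its neighbour Sec61a2 was not called.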

How the data were processed

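RNA-seq was done on 9 libraries, and the 6 of pachytene spermatocytes and spermatogonia are compared. Per the labels' protocols, total RNA (Qiagen kit, 1 µg for each cell type) was made into stranded Illumina TruSeq libraries and read as pairs of 100 bp. Per the submitters' processing notes, Cuffdiff 2.2.1, TopHat2 2.0.12, Trim Galore and FastQC were used with mm10. No annotation release, option or strand setting is named there. Per-library FPKM values were deposited in a pair of separately scaled tables, which were taken as they stand. The authors' comparison sheets were not used. No per-library column was left without a sample.

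Identifiers were matched to GENCODE M21 on GRCm38, 38505 in the mRNA table and 5189 in the lncRNA table. In the mRNA table, 31 features blank in a library were left out. Features reaching 0.5 FPKM in 3 or more of 9 libraries were tested with limma 3.58.1 (R 4.3.3) with a mean trend on log2(FPKM + 0.1), all 9 libraries in the fit and Benjamini-Hochberg adjustment over the whole table. The fit was also run on simulated data, and the outcome is not given here. Depth was estimated from the steps of low values of genes of at least 2000 nt with a single transcript; no interval was made from it. Members of lists, pairs and rules for named genes were chosen with earlier results of these data known, and so support nothing by their choice. Named genes are the 10 highest coding features of each stage, the 10 largest rises and falls of at least 10 FPKM with signal in all 6 libraries, up to 4 called members per list and direction with every member against the list's direction, all pairs, X-linked and Y-linked features, the 5 least changed, the 8 largest lncRNA changes of at least 25 FPKM, called known lncRNAs and the 5 head-to-head pairs highest in each stage. Other genes named were chosen after their values were seen. RefSeq windows were taken as the first listed for a gene. Tables were handled in Python 3.11.15 with pandas 2.3.3.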

Additional observations from a re-analysis of the deposited data

How the results depend on the processing

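Counts of rises and falls in both tables stayed within 1.5 times of those given under every alternative run. In the mRNA table rises ranged from 6516 to 6594 and falls from 5490 to 5599 as each replicate was left out, and in the lncRNA table from 1206 to 1227 and from 860 to 962. At a pseudocount of 1 FPKM 5227 rose and 4219 fell in the mRNA table, and without the filter 6949 rose and 7002 fell. With the 6 compared libraries alone in the filter and fit, 5956 rose and 5447 fell there. The X minus autosome difference kept its sign under all alternatives, between -2.07 at a pseudocount of 0.01 FPKM and -0.30 without the filter, always at the smallest p the design allows.

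No pairing by replicate number was seen, though 3 libraries of each stage cannot exclude one. Deviations of same-numbered libraries correlated at -0.106, -0.0636 and 0.0102 in the mRNA table. Those of differently numbered libraries correlated at -0.042 to 0.1165. With the replicate number as a block, 6582 rose and 5580 fell there, 1269 and 1018 in the lncRNA table, and no named feature changed its call. With the libraries paired by number, the X minus autosome difference was -1.95 (exact sign-flip permutation test, p = 0.25, the smallest that 3 pairs allow).

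Of 395 named features, 267 kept direction and call under all alternatives and 128 lost or gained a call in some, 68 of them losing it at a pseudocount of 1 FPKM and 65 with the spermatid share subtracted. With that share subtracted Cypt3 reversed to -0.99, Gm21292 to -0.054, Gm21778 to -0.050, Gm5941 to -0.50, RP24-228I22.1 to -0.082 and the Y-linked coding feature ENSMUSG00000100634 to -0.064 on the log2 scale. Eif4e reversed to -0.09 under quantile normalization and Dancr to 0.077 in the mRNA table. The cause was not tested. Single libraries decided several calls near the thresholds: Des lost its call without any pachytene library (limma adjusted p = 0.0758 to 0.0794), Jpx without any spermatogonia library (0.061 to 0.0863), Fendrr without pachytene replicate 2 or spermatogonia replicate 2 (0.0524 and 0.0711) and C1qa without pachytene replicate 3 (0.0783). Depth limits low features, for which 1 fragment is a large step, most in the lncRNA table.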
